A study of Mus musculus with 6 samples.

Results

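The genes described here make sterols and fatty acids. They were the 36 listed genes of cholesterol synthesis, of its control by the SREBP transcription factors, of fatty acid synthesis and of sterol export, each read at the brightest probe set that carried its symbol alone. Of the 36, 35 were measured, out of 18193 genes with a single symbol, and all 35 passed the filter on dim probe sets. Acat2 was not analysed here. Only the mean signal chose the probe set of a gene, so signal levels are given as a description. The sterol arm held 18 measured genes, with 7 of the mevalonate steps and 11 of the steps from squalene to cholesterol. The fatty acid arm held 9, and 5 regulators and 3 transport genes stood beside the arms. Since the genes and the arms were chosen with earlier results of these data known, counts over them are a description.

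Cholesterol is built from acetyl-CoA through mevalonate, isoprenoid diphosphates and squalene. When membrane sterol is scarce, Scap escorts SREBP proteins from the endoplasmic reticulum to the Golgi, where they are cleaved, and the freed part enters the nucleus and switches on the genes of the pathway. When sterol is plentiful, the Insig proteins hold Scap back. SREBP2, the product of Srebf2, acts mainly on sterol genes, while SREBP1, the product of Srebf1, also drives the genes of fatty acid synthesis and desaturation. Insig1 is itself a target of SREBP, and Abca1 and Abcg1, which export cholesterol, are targets of the oxysterol receptors LXR.

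The RNA came from dermal fibroblasts of newborn mice aged 0 to 2 days, at passage 4, grown in medium with serum. The mice carried an X-linked GFP transgene under a chicken beta-actin promoter with a CMV enhancer, from a mixed 129/ICR background, crossed to BL6. All cells of the study were first sorted for absence of GFP, which the submitters take to mean that the transgene lay on the inactive X. There were 3 groups of 2 arrays. Controls got no drug and no second sort. For the other groups 5-aza-2'-deoxycytidine, which blocks the copying of DNA methylation, was present for 48 hours at 4 μM, with 24 hours of drug-free medium afterwards. The free-text description of these arrays says untreated in the same phrase as the dose, whereas their titles and treatment fields name the drug, and the latter were followed. A second sort then gave GFP-positive cells, with a reactivated transgene, and GFP-negative cells, in which it remained off. The labels give mixed sex for the second control and female for the other 5 arrays. The second sort and the drug cannot be told apart in comparisons with control.

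Scaling to a 2% trimmed mean signal of 500 multiplied GFP-negative replicate 2 by 8.06 and GFP-positive replicate 2 by 9.90. Arrays with the same replicate number resembled each other: their signals had lower quartiles of 38.7 to 42.6 for number 1 and 19.2 to 22.6 for number 2. Differences are therefore given over all arrays and within each number, as differences in log2(signal + 30.6), a scale that understates changes of dim probe sets. All 9 listed fibroblast markers passed the filter. In bulk RNA, fewer cells of a type and less RNA per cell cannot be told apart.

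In both treated groups most sterol genes were lower than in control, by a median of -0.74 in GFP-positive cells (-0.97 within number 1 and -0.52 within number 2) and of -0.79 in GFP-negative cells (-1.004 and -0.59). The median of all 27022 probe sets tested was 0.04 in both comparisons. The greatest differences among all 35 genes were those of Mvd, Fdps, Hmgcs1, Insig1 and Fdft1 in GFP-positive cells and of Fdps, Hmgcs1, Fdft1, Insig1 and Lss in GFP-negative cells. In GFP-positive cells 15 of the 18 sterol genes were lower within both replicate numbers, and in GFP-negative cells 16, where 28.5% and 26.8% of all probe sets were lower in this way. The arrays of GFP-positive and control cells did not overlap for 12 of the 18, all lower, against 14.9% lower among all probe sets. For GFP-negative cells the count was again 12 lower, against 13.5%, with Ggps1 higher (15.1% of all probe sets were higher in this way). These shares are over all 27022 probe sets, dim ones included, whereas the 18 are the brightest probe set of each gene. Both comparisons used the same control arrays. Without GFP-positive replicate 1 the sterol median of GFP-positive cells was -0.47.

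The test was that of limma over all 6 arrays with Benjamini-Hochberg adjustment over all probe sets. It called 0 of the 35 genes in either comparison (0.122% and 0.0296% of all probe sets were called), with smallest adjusted p-values of 0.253 and 0.548. At an unadjusted p under 0.05, 15 genes were lower in GFP-positive cells, against 3.43% of all probe sets, and 13 in GFP-negative cells, against 2.31%. With the replicate number as a block, 15 of the 35 were lower in GFP-positive cells and 13 in GFP-negative cells, where 3.06% and 1.68% of all probe sets were called lower, and 0 were higher (3.15% and 1.90% of all). Taking 1 brightest probe set for each named gene, those shares were 3.80% and 2.10%. The blocked test depended on the mean-variance trend, and without the trend it called 0 of the 35. For genes among the 35 that passed the blocked test, each difference is given below with its standard error (SE) without the block and the adjusted p of both fits; where only the blocked p is given for GFP-negative cells, the other was 0.9998.

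**Figure D1:**
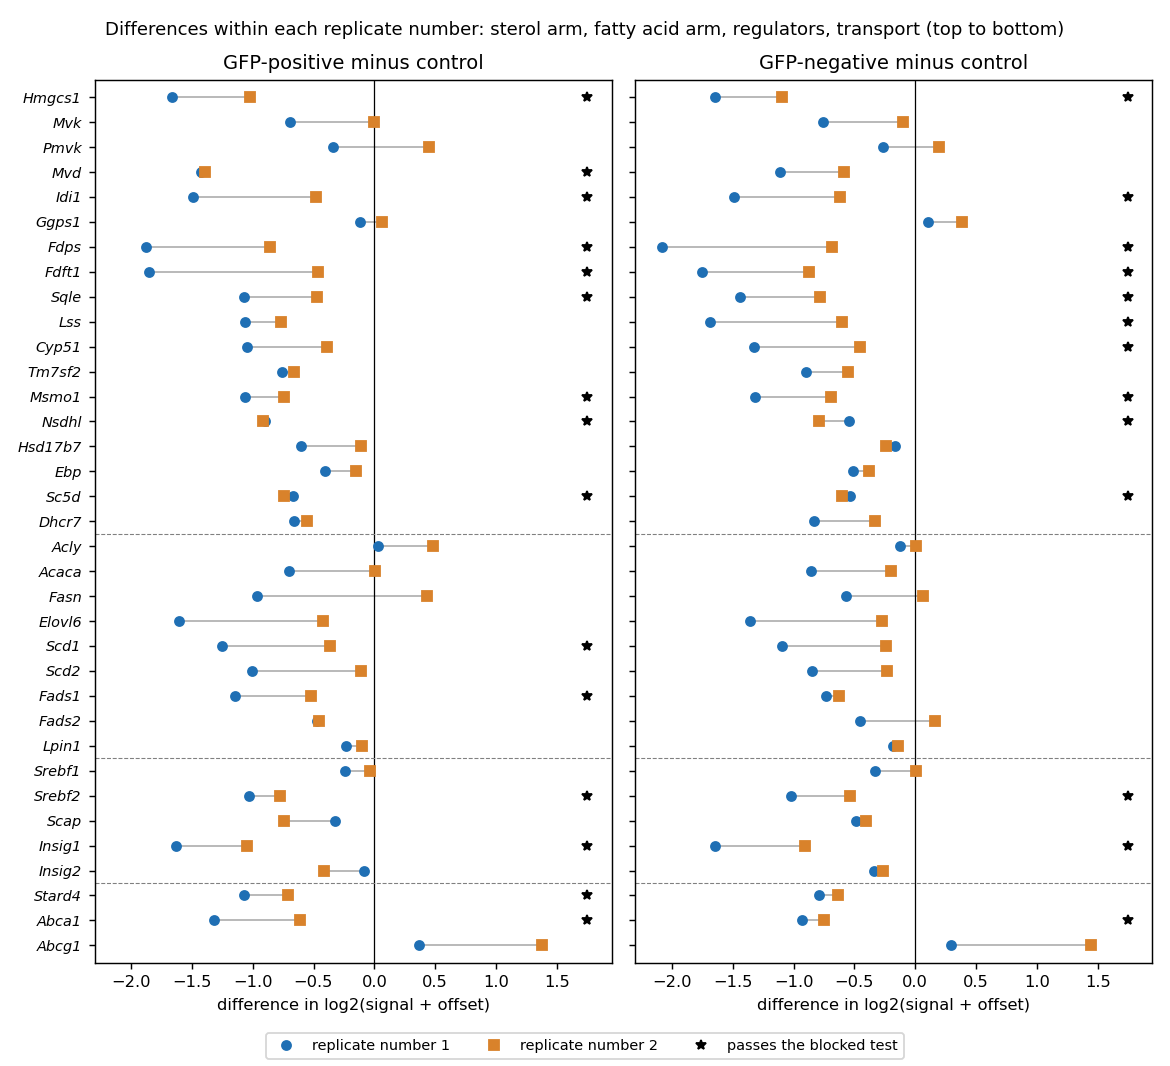
Difference in log2(signal + 30.6) from the control array of the same replicate number for each of the 35 genes, for GFP-positive (left) and GFP-negative cells (right). Circles are number 1, squares number 2, stars mark genes that passed the blocked test, and dashed lines separate the sterol arm, the fatty acid arm, regulators and transport genes; most sterol genes lie left of 0 in both panels, and the circles lie farther left than the squares for most genes.

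Markers of cell types differed in the same comparisons. The summed signal of the 9 fibroblast markers was 197309 and 203163 in control, 170625 and 161735 in GFP-negative and 158975 and 160052 in GFP-positive cells. For 7 of the 9 the GFP-positive arrays lay below control without overlap, and for 5 the GFP-negative arrays, against 14.9% and 13.5% of all probe sets. With the block 5 were lower in GFP-positive cells (Col1a1, Col3a1, Dcn, Pdgfra and Pdgfrb) and 4 in GFP-negative cells (the last 4), against 3.06% and 1.68%. Dcn, the matrix proteoglycan decorin, was at 12516 and 2957 in control, 2720 and 333.8 in GFP-negative and 1496 and 202.9 in GFP-positive cells. Without the number 2 array of the treated group Dcn was at -2.00 rather than -3.36 in GFP-positive and -1.15 rather than -2.61 in GFP-negative cells, Pdgfra at -0.86 rather than -1.535 and -0.34 rather than -1.30, and Col1a1 at -0.26 rather than -0.76 in GFP-positive cells. Without control replicate 1 Pdgfrb was at -0.69 rather than -1.04 and -0.40 rather than -0.75. Vim and S100a4 overlapped control in both groups.

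The muscle and leukocyte lists had higher sums in the treated arrays. Desmin (Des) was at 44.6 and 69.1 in control, 536.5 and 313.6 in GFP-negative and 224.2 and 390.9 in GFP-positive cells, and passed the blocked test in both comparisons (adjusted p = 0.0101 in GFP-positive and 0.00453 in GFP-negative cells), while Myog was below the filter. Myod1 and Ckm passed the filter but overlapped control in both groups, and were higher within number 1 and lower within number 2. Of the muscle markers past the filter, only Des was thus higher without overlap. The 4 muscle markers summed to 288.0 and 271.3 in control, 920.3 and 392.6 in GFP-negative and 573.2 and 577.9 in GFP-positive cells. The 4 leukocyte markers summed to 738.6 and 666.7 in control, 1122 and 1033 in GFP-negative and 863.0 and 1122 in GFP-positive cells, with Cd68 and Csf1r higher in both groups without overlap and Ptprc and Itgam below the filter. The keratinocyte, melanocyte, endothelial and Schwann lists were dim, with sums of 133.0 to 691.5 per list and array. The part of any of these in the sterol and fatty acid results was not tested.

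Among the mevalonate steps, 4 of 7 genes passed the blocked test in GFP-positive cells (Hmgcs1, Mvd, Idi1 and Fdps) and 3 in GFP-negative cells (Hmgcs1, Idi1 and Fdps). That test called 3.06% and 1.68% of all probe sets lower. Hmgcs1 makes HMG-CoA, the compound that is then reduced to mevalonate. Its signal was 8487 and 11760 in control, 2694 and 5480 in GFP-negative and 2652 and 5778 in GFP-positive cells. Both treated groups lay below both control arrays, and the number 1 array was the lower one in each group. The difference was -1.34 ± 0.44 in GFP-positive cells (limma's adjusted p = 0.504; with the block ± 0.16 and 0.000619) and -1.37 ± 0.44 in GFP-negative cells (0.696; with the block 0.000810). Without the number 1 array of the treated group it was -0.79 and -0.86. Its 3 other bright probe sets were lower within both numbers in both groups, by -1.005 to -1.485 and by -1.067 to -1.313 over all arrays.

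Mvd, the decarboxylase that yields isopentenyl diphosphate, was the gene with the smallest p in GFP-positive cells. It stood at 668.0 and 742.9 in control, 293.2 and 484.5 in GFP-negative and 230.0 and 263.2 in GFP-positive cells. All treated arrays were below both controls, and the GFP-positive arrays were below both GFP-negative ones. The difference was -1.41 ± 0.32 in GFP-positive cells (-1.42 within number 1 and -1.40 within number 2; adjusted p = 0.253, or 0.00457 with the block) and -0.85 ± 0.32 in GFP-negative cells (0.848, or 0.0744). Its other probe set was lower too within both numbers, by -0.80 and -1.24 in GFP-positive cells.

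Fdps joins isoprenoid units into farnesyl diphosphate. Its signal was 8047 and 7790 in control, 1877 and 4836 in GFP-negative and 2173 and 4291 in GFP-positive cells. The controls were close to each other, while the treated arrays of number 1 were below those of number 2. The difference was -1.37 ± 0.46 in GFP-positive cells (limma's adjusted p = 0.521, or 0.00914 with the block) and -1.38 ± 0.46 in GFP-negative cells (0.725, or 0.0118). Leaving out the number 1 array of the treated group gave -0.88 and -0.71. Idi1, which interconverts the isoprenoid building blocks, had the same order, with 2273 and 2408 in control, 788.9 and 1559 in GFP-negative and 790.2 and 1714 in GFP-positive cells. Its difference was -0.99 ± 0.42 (adjusted p = 0.6996, or 0.0246 with the block) and -1.05 ± 0.42 (0.930, or 0.02595), and it was -0.44 without GFP-positive replicate 1 and -0.58 without GFP-negative replicate 1.

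The kinases of the mevalonate steps and the branch enzyme Ggps1 differed less. Mvk, the first kinase, was at -0.69 within number 1 and 0.0005 within number 2 in GFP-positive cells on its brightest probe set, but its other probe set was at -1.81 and -0.57. Pmvk, the next kinase, was at -0.34 and 0.45, so its direction was not the same within both numbers. Ggps1, which leads to geranylgeranyl groups and away from sterols, was at -0.03 ± 0.24 in GFP-positive and 0.24 ± 0.24 in GFP-negative cells. None of these 3 passed either test.

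The bases upstream of 4 genes are shown because they stand for early and late enzymes and the feedback control of the pathway, and because all 4 passed the blocked test in GFP-positive cells. Hmgcs1 was chosen by rule, as the one sterol gene or Insig1 whose window held TCACNCCAC, a form of the sterol regulatory element. Insig1, Mvd and Nsdhl were chosen after their values were seen. Each line gives the 250 bases before the start site from RefSeq (GRCm38.p6), 5′ to 3′ on the gene's strand. Capitals mark matches to TCACNCCAC, to CCAAT (the box bound by NF-Y), to GGGCGG (the box bound by Sp1) and to CACGTG (an E-box), on either strand. They lie at chr13:119690101-119690350 on the plus strand for Hmgcs1, chr5:28071162-28071411 on the plus strand for Insig1, chr8:122443423-122443672 on the minus strand for Mvd and chrX:72918271-72918520 on the plus strand for Nsdhl.
Hmgcs1: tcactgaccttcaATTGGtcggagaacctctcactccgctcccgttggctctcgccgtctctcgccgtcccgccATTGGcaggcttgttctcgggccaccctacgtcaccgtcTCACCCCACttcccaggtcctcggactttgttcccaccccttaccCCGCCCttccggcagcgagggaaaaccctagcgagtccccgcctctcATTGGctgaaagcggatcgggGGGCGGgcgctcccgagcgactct
Insig1: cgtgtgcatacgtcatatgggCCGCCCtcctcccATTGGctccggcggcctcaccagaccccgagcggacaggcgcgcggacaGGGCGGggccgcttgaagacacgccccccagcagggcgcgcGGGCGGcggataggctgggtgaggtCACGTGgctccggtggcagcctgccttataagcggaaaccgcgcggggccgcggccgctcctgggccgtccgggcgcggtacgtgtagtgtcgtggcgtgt
Mvd: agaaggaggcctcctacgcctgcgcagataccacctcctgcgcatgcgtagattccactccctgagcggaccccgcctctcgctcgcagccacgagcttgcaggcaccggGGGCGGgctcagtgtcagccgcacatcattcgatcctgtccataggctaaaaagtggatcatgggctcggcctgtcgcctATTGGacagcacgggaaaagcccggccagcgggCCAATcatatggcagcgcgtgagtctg
Nsdhl: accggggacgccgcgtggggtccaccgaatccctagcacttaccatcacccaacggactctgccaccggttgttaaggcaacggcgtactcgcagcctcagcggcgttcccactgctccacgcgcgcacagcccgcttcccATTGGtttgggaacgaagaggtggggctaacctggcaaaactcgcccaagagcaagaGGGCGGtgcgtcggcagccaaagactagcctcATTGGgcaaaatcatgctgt

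The Hmgcs1 window held TCACCCCAC starting 137 bases before the start site, with CCAAT boxes in reverse at 237, 176 and 45 bases before it. A TCACNCCAC match was present in 1.24% of all 32851 windows of 300 bases (250 before and 50 after a start site). CCAAT on either strand was in 15 of the 19 windows of the 16 sterol arm genes with a window, or 78.9%, against 37.4% of all windows; Acat2 is counted among these 16 although it was not measured. GGGCGG was in 15 of the 19 as well, against 35.7%, and CACGTG in 3 of 19, against 7.15%. Among the 6 fatty acid genes with a window, CCAAT was in 2 and GGGCGG in 2. No match of one of the 4 motifs overlapped a match of another in the windows of these genes. These counts describe letters in a window and were not tested.

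On the brightest probe sets, all 11 listed genes from squalene to cholesterol were lower than control in both treated groups and within both replicate numbers. Among all probe sets 28.5% in GFP-positive and 26.8% in GFP-negative cells were lower within both numbers. With the block 5 passed in GFP-positive cells (Fdft1, Sqle, Msmo1, Nsdhl and Sc5d) and 7 in GFP-negative cells (these and Lss and Cyp51). The block called 3.06% and 1.68% of all probe sets lower. Lbr, a sterol reductase kept on the list of other lipid genes and not among the 11, went the other way. In GFP-positive cells Lbr was at 0.26, above both controls (17.3% of all probe sets were higher without overlap). In GFP-negative cells it was at 0.13 and overlapped control. Fdft1, squalene synthase, takes the first step given over to sterols. It was at 2986 and 3283 in control, 866.6 and 1782 in GFP-negative and 806.5 and 2380 in GFP-positive cells, so the treated arrays lay below the controls and number 1 far below number 2. The difference was -1.15 ± 0.51 in GFP-positive cells (-1.85 and -0.46 within the numbers; adjusted p = 0.722, or 0.0229 with the block) and -1.31 ± 0.51 in GFP-negative cells (-1.75 and -0.87; 0.888, or 0.0174). Without GFP-positive replicate 1 the first was -0.39, and without GFP-negative replicate 1 the second was -0.80.

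Sqle, squalene epoxidase, is a rate-limiting enzyme of the later pathway. Its control arrays agreed closely, at 3078 and 3067, while GFP-negative cells were at 1115 and 1774 and GFP-positive cells at 1445 and 2209. The difference was -0.77 ± 0.30 in GFP-positive cells (limma's adjusted p = 0.632, or 0.0282 with the block) and -1.11 ± 0.30 in GFP-negative cells (0.548, or 0.00588), the gene with the smallest p among the 35 in that comparison. In GFP-positive cells it was -0.47 without replicate 1. Lss, which closes squalene epoxide into lanosterol, stood at 1155 and 958.2 in control, 338.1 and 621.6 in GFP-negative and 537.3 and 550.2 in GFP-positive cells. Its difference was -0.91 ± 0.32 (adjusted p = 0.547, or 0.0551 with the block) and -1.14 ± 0.32 (0.582, or 0.0298); the second was -0.73 without GFP-negative replicate 1. Cyp51, which removes a methyl group from lanosterol, was at 2924 and 2522 in control, 1149 and 1835 in GFP-negative and 1401 and 1922 in GFP-positive cells. Its difference was -0.72 ± 0.29 (adjusted p = 0.661, or 0.0581 with the block) and -0.89 ± 0.29 (0.709, or 0.0328), and the second was -0.56 without GFP-negative replicate 1.

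Msmo1 and Nsdhl act together to remove the methyl groups at carbon 4 of the sterol ring. Msmo1 was at 4145 and 6729 in control, 1651 and 4161 in GFP-negative and 1966 and 3999 in GFP-positive cells. The number 2 arrays were above the number 1 arrays in every group, so that GFP-negative replicate 2 was level with control replicate 1. The difference was -0.91 ± 0.50 in GFP-positive cells (limma's adjusted p = 0.839; with the block ± 0.16 and 0.00724) and -1.001 ± 0.50 in GFP-negative cells (0.9998; with the block 0.00559). Without the number 1 array of the treated group it was -0.40 and -0.34. Nsdhl lies on the X chromosome, of which one copy is silenced in female cells. It stood at 1685 and 2050 in control, 1143 and 1171 in GFP-negative and 889.9 and 1072 in GFP-positive cells, with the GFP-positive arrays below both GFP-negative ones. Its difference was -0.91 ± 0.23 (-0.90 and -0.92 within the numbers; adjusted p = 0.321, or 0.00678 with the block) and -0.67 ± 0.23 (-0.55 and -0.79; 0.759, or 0.0428). Ebp, a sterol isomerase and the other X-linked gene of the arm, was at -0.28 ± 0.25 and -0.45 ± 0.25 and did not pass either test.

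Sc5d, the desaturase that acts before Dhcr7, was at 2339 and 3399 in control, 1605 and 2226 in GFP-negative and 1463 and 2024 in GFP-positive cells. Its difference was nearly equal within the numbers, at -0.67 and -0.74 in GFP-positive cells (-0.70 ± 0.29 overall; adjusted p = 0.679, or 0.0132 with the block) and -0.53 and -0.60 in GFP-negative cells (-0.57 ± 0.29; 0.0497 with the block). Without control replicate 2 it was -0.44 and -0.30. The remaining 3 genes were at -0.71 and -0.72 (Tm7sf2), -0.61 and -0.58 (Dhcr7) and -0.36 and -0.20 (Hsd17b7) in GFP-positive and GFP-negative cells, and none of these passed either test. They are a reductase of sterol double bonds, the enzyme of the last step of one route to cholesterol, and a reductase of the demethylation steps.

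**Figure D2:**
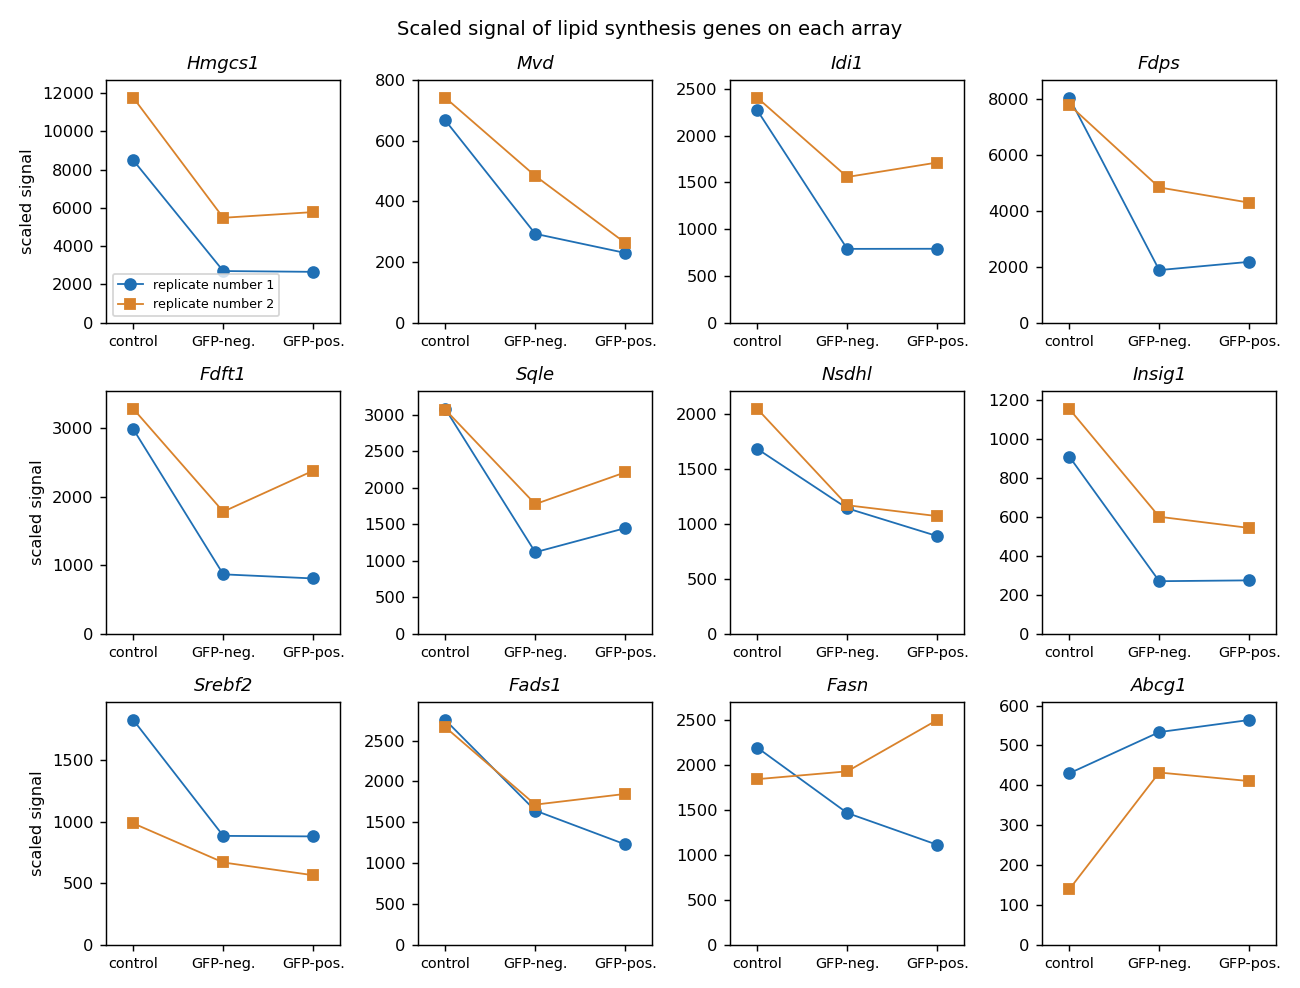
Scaled signal (linear axis from 0) of 12 genes on the 6 arrays, with a line for each replicate number (blue circles, number 1; orange squares, number 2). For Hmgcs1, Fdps, Idi1, Fdft1 and Insig1 both treated groups lie below both control arrays and the number 1 treated arrays lie lowest; Abcg1 runs the other way, from 430.0 and 139.0 in control to 563.8 and 410.6 in GFP-positive cells.

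The regulators differed among themselves, and 2 of 5 (Insig1 and Srebf2) passed the blocked test in each comparison. Of all probe sets 3.06% in GFP-positive and 1.68% in GFP-negative cells were called lower by it. Insig1 was at 910.1 and 1155 in control, 269.6 and 600.6 in GFP-negative and 273.9 and 543.2 in GFP-positive cells. All treated arrays were below the controls, and number 1 was below number 2 in each group. The difference was -1.34 ± 0.44 in GFP-positive cells (-1.63 and -1.05 within the numbers; adjusted p = 0.505, or 0.00546 with the block) and -1.28 ± 0.44 in GFP-negative cells (-1.65 and -0.91; 0.759, or 0.00956). Without the number 1 array of the treated group it was -0.88 and -0.74. Its relative Insig2, which is not known as a strong SREBP target, was at -0.25 ± 0.31 and -0.30 ± 0.31 and overlapped control in both groups.

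Srebf2 stood at 1829 and 988.0 in control, 886.2 and 669.9 in GFP-negative and 881.9 and 566.0 in GFP-positive cells. Its controls were far apart, and each treated array was below the control of its number. The difference was -0.90 ± 0.36 in GFP-positive cells (-1.03 and -0.77 within the numbers; adjusted p = 0.658, or 0.0144 with the block) and -0.78 ± 0.36 in GFP-negative cells (-1.02 and -0.54; 0.0395 with the block). Without control replicate 1 it was -0.47 and -0.35. Its other probe set was lower as well, by -1.27 and -0.76 within the numbers in GFP-positive cells. Srebf1 was at 1645 and 1418 in control, 1302 and 1424 in GFP-negative and 1383 and 1381 in GFP-positive cells. Its difference was -0.14 ± 0.22 and -0.16 ± 0.22 and did not pass either test (adjusted p with the block = 0.676 and 0.682).  Scap, the escort of SREBP, was at -0.54 ± 0.25 and -0.45 ± 0.25 (0.0858 and 0.196 with the block).

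In the fatty acid arm the median difference was -0.46 in GFP-positive cells and -0.53 in GFP-negative cells, but it lay mostly in the number 1 arrays, with -0.96 against -0.11 and -0.73 against -0.20 within the numbers. With the block 2 of the 9 genes were lower in GFP-positive cells, Scd1 and Fads1, and 0 in GFP-negative cells. The shares of all probe sets were 3.06% and 1.68%. In GFP-positive cells the median was -0.28 when control replicate 1 was left out and -0.76 when GFP-positive replicate 2 was left out. It was -0.29 with all probe sets of a gene averaged. In GFP-negative cells it was -0.29 without control replicate 1 and -0.27 without GFP-negative replicate 1. The sterol median was below the fatty acid median by -0.01 within number 1 and -0.41 within number 2 in GFP-positive cells, and by -0.27 and -0.40 in GFP-negative cells. The sign was the same in all 4 treated arrays, but in GFP-positive replicate 1 the arms were nearly level.

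**Figure D3:**
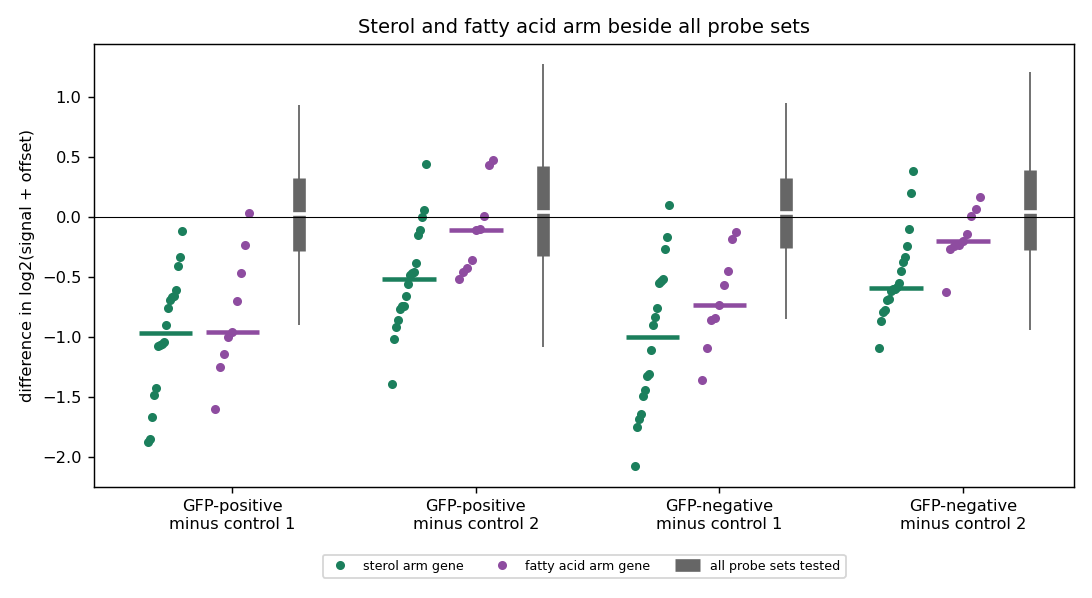
Differences in log2(signal + 30.6) from the control array of the same number in each treated array, with a point for each gene of the sterol arm (18) and the fatty acid arm (9) and a bar at each median. Grey bars show the middle 50% and thin lines the 5th to 95th percentile of all 27022 probe sets; the sterol medians lie between -1.004 and -0.52, and the fatty acid medians between -0.96 and -0.11.

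Fads1, Scd1 and Elovl6 had the smallest p-values of that arm in both comparisons. Fads1, a desaturase of polyunsaturated fatty acids, was at 2752 and 2664 in control, 1643 and 1716 in GFP-negative and 1229 and 1847 in GFP-positive cells, with no overlap of either treated group with control. Its difference was -0.83 ± 0.25 (adjusted p = 0.433, or 0.0169 with the block) and -0.68 ± 0.25 (0.814, or 0.0597), and the first was -0.54 without GFP-positive replicate 1. Its other probe set, which was dimmer, was at -0.12 and 0.63 within the numbers in GFP-positive cells. Scd1, the desaturase that makes oleate, was at 2669 and 2239 in control, 1232 and 1888 in GFP-negative and 1101 and 1736 in GFP-positive cells. Its difference was -0.81 ± 0.31 (-1.25 and -0.36 within the numbers; adjusted p = 0.608, or 0.0456 with the block) and -0.67 ± 0.31 (-1.10 and -0.24; 0.127 with the block), and the first was -0.49 without GFP-positive replicate 1. The other probe set of Scd1, also dimmer, was at -0.89 and -0.05 within the numbers in GFP-positive cells. In GFP-negative cells it was at -1.37 and 0.11. Elovl6, which lengthens palmitate, was at 1265 and 728.0 in control, 474.5 and 598.2 in GFP-negative and 395.6 and 534.3 in GFP-positive cells. Its difference was -1.015 ± 0.34 (adjusted p = 0.505, or 0.0507 with the block) and -0.81 ± 0.34 (0.948, or 0.150), and without control replicate 1 it was -0.63 and -0.43.

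Acly, Acaca and Fasn make palmitate from citrate. Acly, which splits citrate to yield acetyl-CoA, was at 5073 and 4683 in control, 4657 and 4715 in GFP-negative and 5180 and 6542 in GFP-positive cells, above both controls (17.3% of all probe sets were higher without overlap). Fasn, the fatty acid synthase, was at 2196 and 1845 in control, 1468 and 1932 in GFP-negative and 1114 and 2504 in GFP-positive cells. In GFP-positive cells Fasn was thus at -0.96 within number 1 and 0.43 within number 2. Acaca, acetyl-CoA carboxylase, was at -0.70 and 0.01 within the numbers in GFP-positive cells and at -0.86 and -0.20 in GFP-negative cells, below both controls there without overlap. None of the 3 passed either test, and the smallest of their adjusted p-values with the block was 0.268. Scd2, Fads2 and Lpin1 were at -0.56, -0.46 and -0.16 in GFP-positive cells and at -0.54, -0.14 and -0.16 in GFP-negative cells, also without passing. The 1 adipocyte marker of the 4 matched that passed the filter was Fabp4, at 472.6 and 1617 in control, 468.2 and 1203 in GFP-negative and 460.1 and 981.6 in GFP-positive cells. Adipoq, Lep and Cidec were below the filter, and the summed signal of the 4 was 566.3 and 1754 in control, 603.5 and 1236 in GFP-negative and 555.7 and 1068 in GFP-positive cells. The 4 matched of 5 markers of sebocytes, the lipid-making cells of skin glands, passed the filter with a sum of 267.0 to 573.7 in control, 282.2 to 504.3 in GFP-negative and 208.8 to 552.9 in GFP-positive cells. These markers were dim, with mean signals of 91.6 to 105.6, not far above the filter of 67.7. The part of either cell type in these results was not tested.

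The transport genes went in both directions. Stard4, a carrier of sterol in the cytosol and a target of SREBP2, was at 866.5 and 599.1 in control, 487.7 and 375.7 in GFP-negative and 395.5 and 354.2 in GFP-positive cells. Its difference was -0.89 ± 0.30 (adjusted p = 0.518, or 0.0275 with the block) and -0.71 ± 0.30 (0.966, or 0.0958), and the second was -0.46 without control replicate 1. Abca1, which loads cholesterol onto lipoproteins, was at 2742 and 977.3 in control, 1423 and 568.4 in GFP-negative and 1084 and 629.3 in GFP-positive cells. Its 2 control arrays were farther apart than the group means, both treated groups overlapped control, and it passed with the block alone, with a difference of -0.96 ± 0.57 (adjusted p = 0.885, or 0.0143 with the block) and -0.84 ± 0.57 (0.0381 with the block). Without control replicate 1 it was -0.23 and -0.11. Abcg1, a related exporter, was higher than the control of its number on all 4 treated arrays, at 430.0 and 139.0 in control, 533.4 and 432.1 in GFP-negative and 563.8 and 410.6 in GFP-positive cells. Its difference was 0.87 ± 0.47 in each comparison, and it did not pass either test (0.105 and 0.146 with the block).

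When both treated groups were set against control, limma called 0 of the 35 genes without the block (0.181% of all probe sets; 17 genes were lower at an unadjusted p under 0.05, against 3.49%). With the block 18 were lower, against 3.32% of all probe sets, and 0 were higher, against 3.67%. Of the 18, 11 belonged to the sterol arm and 3 to the fatty acid arm. The fatty acid genes were Scd1, Fads1 and Elovl6 (adjusted p with the block = 0.0394). Between GFP-positive and GFP-negative cells 0 of the 35 genes were called by limma with or without the block (0% of all probe sets in each). Without the block 0 were at an unadjusted p under 0.05 (0.359% of all were lower and 0.266% higher at that level). With the block limma's unadjusted p was 0.032 for Mvd (adjusted p = 0.837) and 0.049 for Acly (adjusted p = 0.856). The median difference between the treated groups was 0.05 in the sterol arm and -0.02 in the fatty acid arm. The greatest single difference was that of Mvd, at -0.56 ± 0.32, followed by Sqle at 0.34 ± 0.30. Such errors do not show that the 2 fractions were alike. Mvd, Nsdhl, Ggps1 and Fads2 were lower in both GFP-positive arrays than in both GFP-negative arrays, and Acly was higher, against 10.0% lower and 10.6% higher among all probe sets.

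The signed log2 difference from control was lower within number 1 than within number 2 for 31 of 35 genes in GFP-positive and 32 of 35 in GFP-negative cells, against 52.1% and 51.9% of all probe sets. In 13 of 18 sterol genes and 6 of 9 fatty acid genes both number 1 treated arrays were below both number 2 treated arrays, against 20.7% of all probe sets. In the controls number 1 was below number 2 for 10 of 18 sterol genes and 0 of 9 fatty acid genes, against 37.0% of all probe sets. The number 1 and number 2 arrays also differed in their lower quartile and in the deposited scale of the treated arrays, and the part of these in the result was not tested.

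Of the 83 probe sets of these genes, 48 were not the brightest, and 38 of those passed the filter. They are read on the same arrays and are not independent samples. In the sterol arm 14 of 19 such probe sets were lower within both numbers in GFP-positive cells and 12 of 19 in GFP-negative cells, with medians of -0.845 and -0.57. In the fatty acid arm the counts were 6 of 12 in each comparison, with medians of -0.22 and -0.23. Probe sets of a gene disagreed for Mvk, as given above, and for Lss, of which one probe set was at 0.20 and -0.01 within the numbers in GFP-positive cells while its others were at -1.06 and -0.77 and at -1.06 and -1.25. One probe set each of Cyp51 and Sc5d was at 0.04 and 0.09 in GFP-negative cells, where the brightest one was lower than control. The 3 other probe sets of Hsd17b7 were at 0.04, 0.54 and 0.25 in GFP-negative cells against -0.20 for the brightest, and one of them was at 0.48 in GFP-positive cells. In GFP-negative cells the other probe set of Acaca was at 0.57 against -0.53. The other probe sets of Ggps1 were at -0.006, -0.23 and 0.16 there, against 0.24 for the brightest. For Lpin1 the other probe set was at -0.78 in GFP-positive and -0.55 in GFP-negative cells, against -0.16 in each for the brightest.

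**Figure D4:**
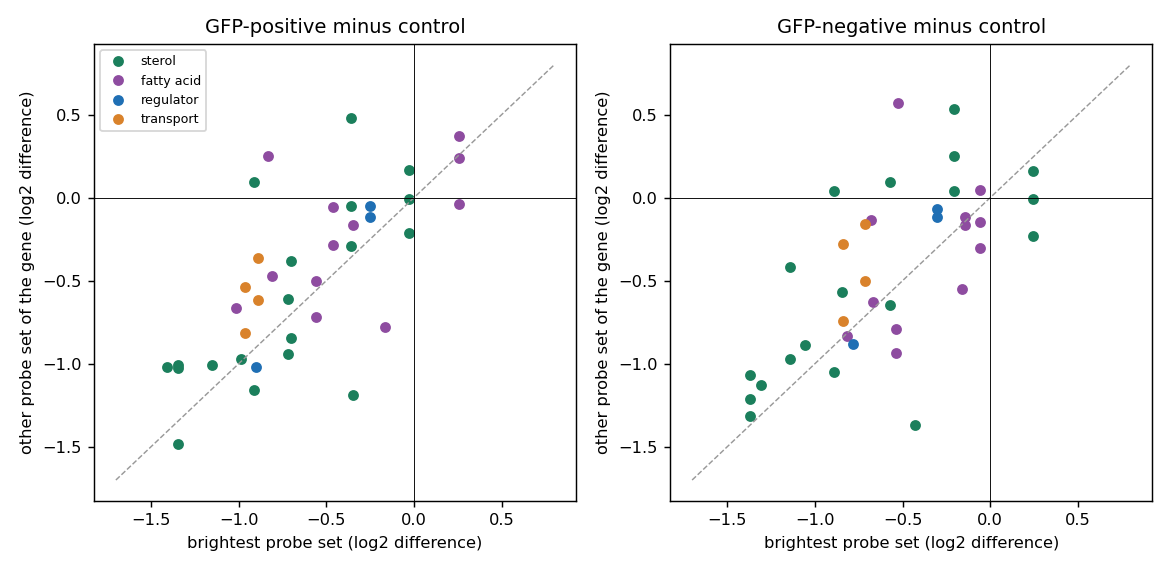
Log2 difference from control of each of the 38 other probe sets past the filter (vertical axis) against that of the brightest probe set of the same gene (horizontal axis), for GFP-positive (left) and GFP-negative cells (right), coloured by arm; the dashed line marks equal values. Most sterol arm probe sets lie in the lower left, and the fatty acid ones lie nearer to 0.

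Other genes of lipid handling, from a list of 40 of which 30 were measured and passed the filter, differed less. Their median was -0.17 in GFP-positive and -0.18 in GFP-negative cells, and 0 were called by limma without the block (4 and 3 at an unadjusted p under 0.05, all lower, against 3.43% and 2.31% of all probe sets). With the block 4 were lower in GFP-positive cells and 2 in GFP-negative cells, against 3.06% and 1.68%. The GFP-positive arrays lay below control without overlap for 12 of the 30 and above it for 3, against 14.9% and 17.3% of all probe sets. For GFP-negative cells the counts were 13 and 2, against 13.5% and 15.1%. Vldlr, a receptor of lipoproteins, was at 2920 and 1801 in control, 1333 and 1246 in GFP-negative and 1162 and 945.0 in GFP-positive cells. Its difference was -1.11 ± 0.28 in GFP-positive cells (limma's adjusted p = 0.3165, or 0.00382 with the block) and -0.82 ± 0.28 in GFP-negative cells (0.759, or 0.0272), and the second was -0.47 without control replicate 1. The mitochondrial thiolase Acat1 was at 2761 and 3214 in control, 1816 and 1930 in GFP-negative and 1726 and 1835 in GFP-positive cells. Its difference was -0.73 ± 0.21 (adjusted p = 0.395, or 0.0109 with the block) and -0.66 ± 0.21 (0.6635, or 0.0262).

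Mylip and Gpam passed with the block in GFP-positive cells. Mylip, a ubiquitin ligase that removes lipoprotein receptors and is a target of LXR, was at 1616 and 761.5 in control, 691.2 and 594.2 in GFP-negative and 575.0 and 512.6 in GFP-positive cells. Its difference in GFP-positive cells was -0.99 ± 0.36 (adjusted p = 0.570, or 0.0297 with the block), and -0.47 without control replicate 1. Gpam, which starts triglyceride synthesis, was at 1625 and 1098 in control, 1061 and 915.0 in GFP-negative and 908.5 and 716.4 in GFP-positive cells. Its difference was -0.71 ± 0.28 (0.6355, or 0.0330 with the block), and -0.43 without control replicate 1.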

How the data were processed

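Total RNA of 6 fibroblast samples was hybridised to Affymetrix arrays. The deposited files held linear signal intensity, made with MAS5 per the submitters' processing notes, whose version is not given here. Of 45101 probe sets 64 controls were left out. Of the rest 34945 had 1 gene symbol, 932 several and 9160 none. Signals were scaled so that every 2% trimmed mean was 500. Before log2, 30.64 was added (the median array's 25th percentile), and probe sets with a mean signal below the 40th percentile (67.7) were left out, which left 27022.

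Comparisons used limma 3.58.1 in R 4.3.3 over all 6 arrays with a mean-variance trend, two-sided, with 3 degrees of freedom left and Benjamini-Hochberg adjusted p-values, called under 0.05. The replicate number was added as a block in a second fit, which left fewer than those 3 degrees of freedom. Same-numbered arrays deviated together from their group means in all 3 pairs of groups (r of 0.506 to 0.556 over 27022 probe sets), which is where the pairing comes from. The labels call the replicates biological but name no separate cultures or animals, so p-values reflect only how these samples varied, possibly for technical reasons, and the number of arrays limits the precision. The fitting code was tested on simulated data. Promoter windows came from RefSeq for 28 of the listed genes.

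The genes, arms and lists were chosen with earlier results of these data known. Values of every array are printed for genes of the 35 that passed with the block, for Insig1, Srebf1 and Srebf2, and for the 3 genes of smallest p in each arm and treated comparison. A few others (Acly, Fasn, Abcg1, Fabp4, Dcn, Des and 4 other lipid genes) were added after their values were seen. Those 4 lipid genes had the smallest p of their list in GFP-positive cells against control. Alternatives tried were scaling by quantiles or by the median, other filters and offsets, eBayes with no trend, the block, only the groups compared, a threshold of 0.1, averaging a gene's probe sets, and leaving out each array. The block with quantile normalization or without a trend, and leaving out both rescaled arrays, were chosen after seeing the data.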

Additional observations from a re-analysis of the deposited data

How the results depend on the processing

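Over all alternatives without the block, the count of the 35 genes called stayed at 0 in GFP-positive against control, and in GFP-positive against GFP-negative cells with the block too. With the replicate block the count was 15 for GFP-positive and 13 for GFP-negative against control and 18 for both treated groups; with the block and quantile normalization it was 14, 10 and 18, and with the block and no trend 0, 0 and 0. Without both rescaled arrays it was 1 in GFP-negative cells (Fdps) and 5 for both treated groups. The count over all probe sets in GFP-positive against control cells was 33, 1679 with the block, 0 without a trend and 8 with the block and no trend. Leaving out 1 array gave 0 to 0 calls in each comparison. The sterol median then ranged from -0.95 to -0.47 in GFP-positive cells, from -1.14 to -0.57 in GFP-negative cells and from -0.32 to 0.35 between the treated groups. The fatty acid median ranged from -0.76 to -0.28, from -0.60 to -0.27 and from -0.22 to 0.18. Without both rescaled arrays the sterol median in GFP-negative cells was -1.14, and averaging the probe sets of a gene gave a sterol median of 0.01712 between the treated groups. Of the genes past the blocked test, 12 of 15 in GFP-positive and 11 of 13 in GFP-negative cells moved toward 0 by over 1.5 times when 1 array was left out, and all kept their sign; these fits have no block and are uneven in replicate number, and the cause was not tested. Over quantile or median scaling and the other offsets and filters, the sterol median stayed within -0.78 and -0.71 in GFP-positive and -0.85 and -0.68 in GFP-negative cells, and the fatty acid median within -0.50 and -0.42 and within -0.57 and -0.46. Over all probe sets GFP-negative against control gave 8 calls, 966 with the block, 0 without a trend and 49 without both rescaled arrays.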

Other observations

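Some genes that act in or around the pathway, but were not on the main gene list, are given here. The proteases that cut SREBP, Mbtps1 and Mbtps2, were at -0.22 ± 0.21 and -0.07 ± 0.25 in GFP-positive cells. Mbtps1 lay below control without overlap in both treated groups, and was at -0.36 ± 0.21 in GFP-negative cells. The values that follow are those of GFP-positive cells. The lysosomal cholesterol genes Npc1 and Npc2 were at 0.16 ± 0.28 and 0.03 ± 0.26, while Lipa, the lysosomal acid lipase, was at -0.56 ± 0.25 (adjusted p with the block = 0.0682, and 0.0305 with both treated groups against control). The LXR gene Nr1h3 was at 0.40 ± 0.65 and Pparg, a regulator of fat cell genes, at 0.68 ± 0.94, errors too wide to give a direction. Me1, which supplies NADPH to fatty acid synthesis, was at 0.42 ± 0.20 (0.0866 with the block). None of these passed limma's test with or without the block in either comparison with control. The examples were picked by role after the values were seen.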
